A study of Homo sapiens with 10 samples.

Results

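Cells take up and exchange amino acids through solute carrier (SLC) proteins in the plasma membrane. The 10 genes described here, SLC1A4, SLC1A5, SLC3A2, SLC7A1, SLC7A5, SLC7A11, SLC38A1, SLC38A2, SLC6A9 and SLC43A1, encode such carriers or a subunit of one. They are the rows of the count table with these symbols, 10 of 57353 genes, and they were listed by name for their place in amino acid supply during cell stress. All 10 passed the filter on low counts, which kept 17230 genes. Counts were obtained by sequencing poly(A) mRNA from 10 samples of LNCaP-C4-2 cells, a line derived from prostate cancer that grows without androgen, kept in serum-containing RPMI with added non-essential amino acids. In the loss-of-function arm, cells transduced with a scrambled, non-targeting shRNA lentivirus (NT, 2 samples) were compared with cells carrying 1 shRNA against CPT1A (KD, 3 samples), and both were selected with puromycin. In the gain-of-function arm, cells with empty vector (EV, 2 samples) were compared with cells over-expressing CPT1A from a lentiviral cDNA (OE, 3 samples), and both were selected with blasticidin. CPT1A is the mitochondrial enzyme that commits long-chain fatty acids to oxidation. Each group is 1 selected line with no separate transductions described, so a difference between lines cannot be told apart from a difference between CPT1A levels.

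Amino acid carriers work as partners and in relays. SLC3A2 (4F2hc, CD98) is a glycoprotein chain that carries light chains to the surface, among them SLC7A5 (LAT1), which brings in leucine and other large neutral amino acids, and SLC7A11 (xCT), which brings in cystine in exchange for glutamate. SLC1A5 (ASCT2) and SLC1A4 (ASCT1) exchange small neutral amino acids such as serine and alanine. SLC38A1 (SNAT1) and SLC38A2 (SNAT2) accumulate small neutral amino acids with sodium, and SLC7A1 (CAT1) carries arginine and lysine. When amino acids run short or proteins misfold, kinases that phosphorylate eIF2 alpha raise the translation of ATF4, a transcription factor that binds CCAAT/enhancer-binding protein-ATF response elements (CARE) at many genes of amino acid uptake and synthesis. SLC6A9 (GlyT1) takes up glycine, and SLC43A1 (LAT3) is another carrier of large neutral amino acids.

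The CARE letters are shown where they fell near a start site of a carrier gene, because the genes fell into several patterns across the lines. RefSeq start-site windows (GRCh38.p14, 250 bases before to 50 bases after each start) were held for 9 of the 10 genes, 16 windows in all. SLC7A11 had no entry. The CARE letters TGATGNAA, searched on both strands, were in 5 of the 16 windows, 1 for each of 5 genes, and in 3.62% of all 35116 windows. Genes with several starts had several windows, so the shares are descriptions of letters and not of bound sites. Each line below gives 30 bases, 5′ to 3′ in the direction of the gene, with the CARE letters in capitals.
SLC1A4, chr2:64989381-64989410, + strand: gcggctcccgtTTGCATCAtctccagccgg
SLC1A5, chr19:46784893-46784922, - strand: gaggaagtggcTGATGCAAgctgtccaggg
SLC3A2, chr11:62881719-62881748, + strand: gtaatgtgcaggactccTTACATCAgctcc
SLC7A1, chr13:29595663-29595692, - strand: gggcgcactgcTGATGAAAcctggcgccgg
SLC38A1, chr12:46266502-46266531, - strand: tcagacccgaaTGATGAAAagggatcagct
The letters lay on the other strand in SLC1A4 and SLC3A2. The first base of the match, read along the gene, was at -7 from the start in SLC1A4, -97 in SLC1A5, +38 in SLC3A2, +8 in SLC7A1 and -4 in SLC38A1, and in all of them but SLC7A1 that start lies inside the gene's GENCODE span rather than at its outer end. Of these 5 genes, SLC1A4, SLC1A5, SLC3A2 and SLC7A1 were higher in OE and lower in KD, and SLC38A1 was lower in both. The other genes with windows, SLC7A5, SLC38A2, SLC6A9 and SLC43A1, had no CARE letters in them. Of those, SLC6A9 was also higher in OE and lower in KD. Whether the letters go with a pattern was not tested. No match in a window says only that the letters are not in it. The E-box CACGTG was in 3 of the 16 windows (SLC1A5, SLC7A5 and SLC43A1) against 7.26% of all, and the antioxidant element TGACNNNGC in 4 of the 16 (SLC1A5, SLC3A2, SLC7A1 and SLC7A5) against 13.3%.

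The samples held 23555205 to 28615770 counts each. CPT1A was 3.11-fold lower in KD than in NT and 2.74-fold higher in OE than in EV. The controls did not start from one level, since CPT1A was 1.22-fold higher in EV than in NT. All 7 LNCaP markers read here (KLK3, KLK2, FOLH1, TMPRSS2, HOXB13, KRT8 and KRT18) were expressed, and their summed level was 5430 to 5710 library-scaled counts (CPM) in NT against 7570 to 8340 in KD, while EV had 7220 to 7590 and OE 10500 to 10900. Of 15 markers of fibroblasts, endothelium, leukocytes and basal epithelium, COL1A1 and VWF made up most of the signal, the summed level of the 5 fibroblast markers was 10.9 to 12.5 CPM in NT and 18.4 to 19.9 in KD, and COL1A2, PECAM1 and KRT5 were at 0 in every sample. KLK3 made up the largest share of the summed LNCaP markers (means of 2470 CPM in NT against 4440 in KD, and of 3410 in EV against 5810 in OE). The LNCaP markers did not all go one way. Mean FOLH1 was 1000 in NT and 686 in KD, and 823 in EV and 747 in OE. Mean TMPRSS2 was 590 in NT and 796 in KD but 1150 in EV and 1030 in OE. The part of these differences in the results below was not tested. In bulk RNA, fewer cells of a kind and less RNA per cell cannot be told apart.

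Of the 10 carriers, 8 fell when CPT1A was knocked down and 6 rose when it was over-expressed, and 5 did both. The test was edgeR's quasi-likelihood F test with 1 mean per line, and a gene was called at a Benjamini-Hochberg adjusted p under 0.0001. In KD against NT, 8 of the 10 were lower, 1 was higher (SLC43A1) and 1 was not called (SLC7A5), with a median log2 fold change of -0.80 against -0.02 for all tested genes. Of all tested genes, 12.8% were lower and 16.4% higher in that comparison. In OE against EV, 6 of the 10 were higher, 2 were lower (SLC7A11 and SLC38A1) and 2 were not called (SLC38A2 and SLC43A1), with a median of 0.34 against -0.02. Among all tested genes, 11.6% were higher and 10.3% lower. With scaling to library size only, 5 of the 10 were higher and 2 lower, and among all genes the calls went from 2004 higher and 1774 lower to 1220 higher and 2168 lower. KD replicate 2 was the highest of the KD samples for 7 carriers, and OE replicate 2 the highest of the OE samples for the same 7 (SLC1A4, SLC1A5, SLC3A2, SLC7A1, SLC7A5, SLC6A9 and SLC43A1), and without either of them no carrier lost its call in an arm other than SLC7A1 in OE.

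**Figure D1:**
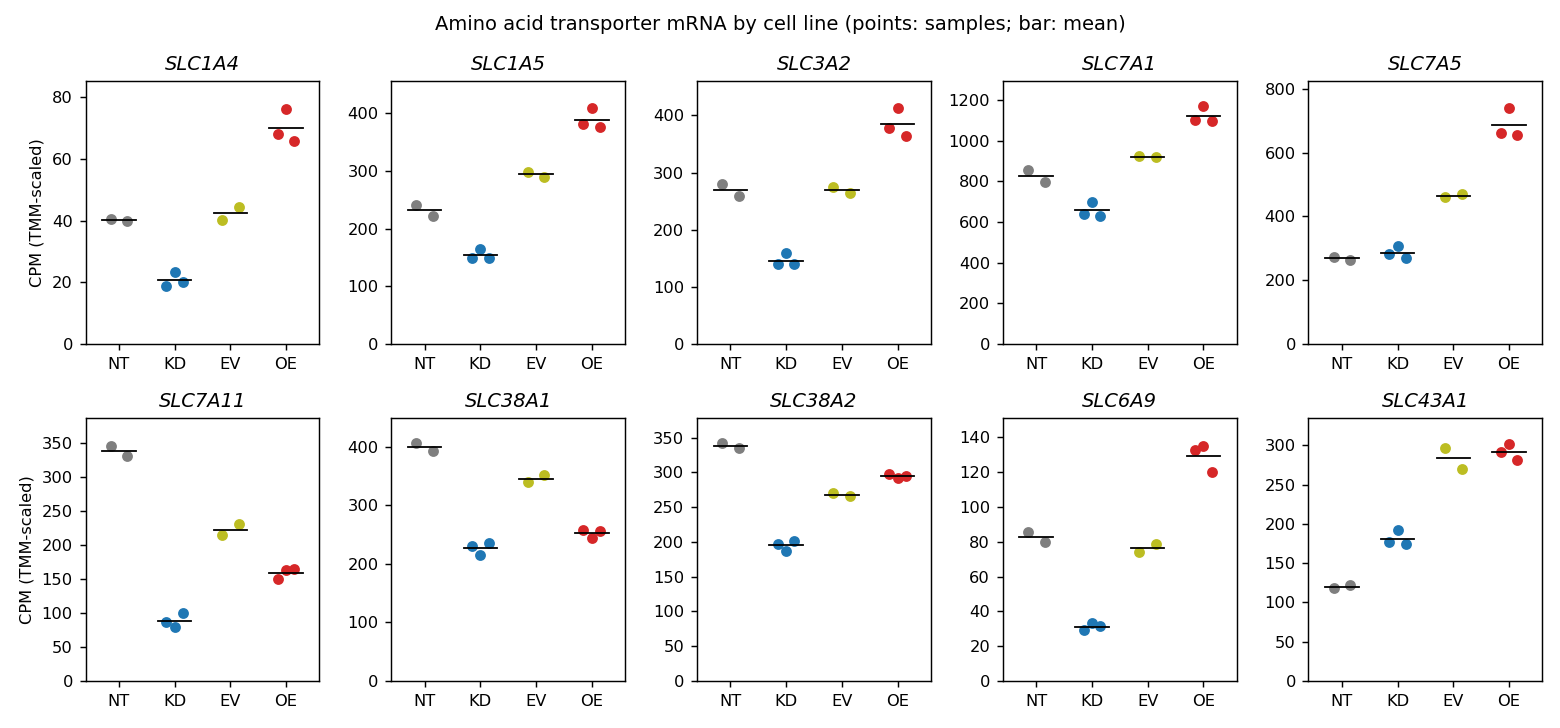
TMM-scaled CPM of the 10 carriers, 1 panel per gene, with 1 point per sample for NT, KD, EV and OE and a line at the mean. SLC6A9 sits between 29 and 33.3 in KD and between 120.3 and 134.8 in OE, while SLC7A11 is highest in NT and below EV in OE.

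The 10 carriers took 5 patterns over the arms. SLC1A4, SLC1A5, SLC3A2, SLC7A1 and SLC6A9 were called higher in OE and lower in KD, a pairing found in 0.772% of all tested genes. SLC7A11 and SLC38A1 were called lower in both, as were 3.73% of all. SLC7A5 was higher in OE and not called in KD, SLC38A2 was not called in OE and lower in KD, and SLC43A1 was not called in OE and higher in KD. The difference between the arms (the interaction, OE over EV less KD over NT on the log2 scale) was called positive for 8 carriers and negative for SLC43A1, where 6.94% of all genes were positive and 8.98% negative. SLC38A1 lay just outside the limit at 0.37 (95% interval 0.23 to 0.50, adjusted p = 0.000103, edgeR). The median interaction of the 10 carriers was 0.96 against -0.02 for all genes. With scaling to library size only, the median of all genes in the interaction moved by -0.13, and 7 carriers were positive and SLC43A1 negative.

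**Figure D2:**
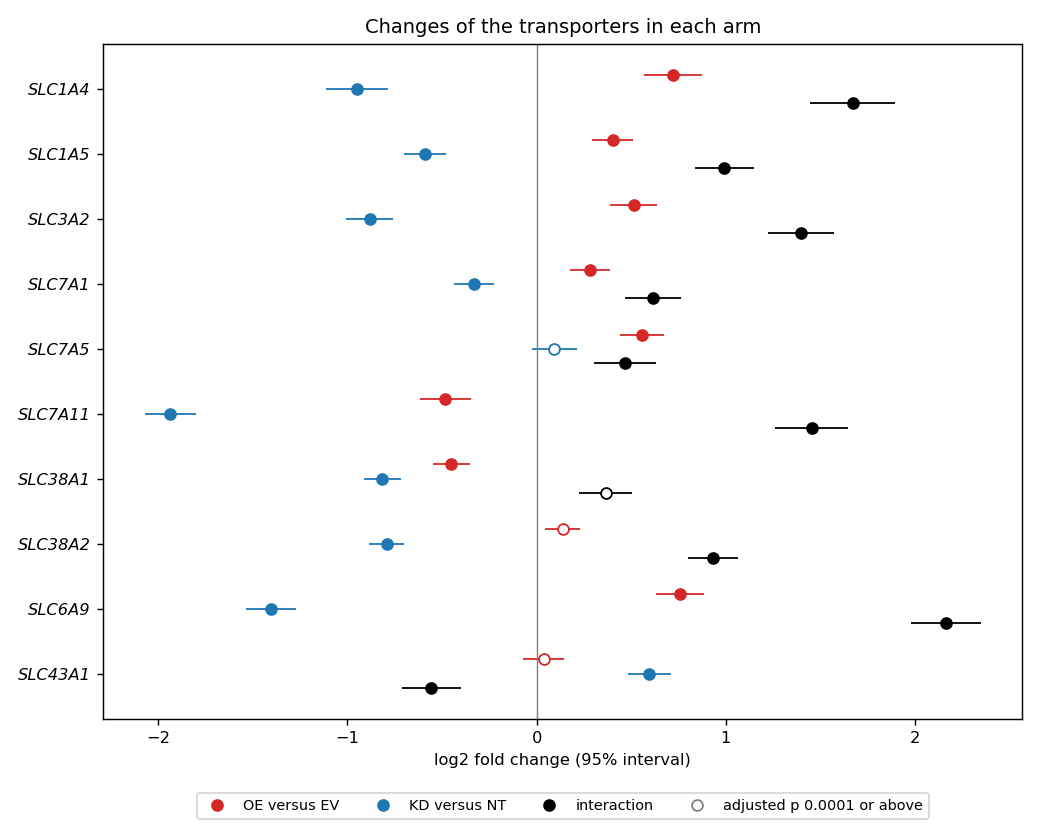
Log2 fold changes with 95% intervals for OE versus EV, KD versus NT and the interaction, 1 row per carrier, with open circles where the adjusted p was 0.0001 or above. SLC6A9 reaches 2.16 in the interaction, and SLC43A1 is the carrier with a negative value there.

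The exchangers SLC1A4 and SLC1A5 moved in opposite directions in the arms. SLC1A4 (chr2:64988477-65023865, GRCh38, + strand, 8 exons) was at 40.5 and 39.8 CPM in NT, 19, 23.3 and 20.1 in KD, 40.3 and 44.5 in EV, and 68.1, 76.0 and 65.8 in OE. Both control lines lay at one level, every KD sample was below them and every OE sample above. It was 1.93-fold lower in KD (log2 fold change -0.95, SE 0.079, adjusted p = 3.06e-10) and 1.65-fold higher in OE (0.72, SE 0.074, adjusted p = 2.46e-08, edgeR), and the 2 changes differed by 1.67 on the log2 scale (adjusted p = 1.19e-11). SLC1A5 (chr19:46774883-46788594, - strand, 8 exons), the carrier best known for glutamine, was at 241 and 222 CPM in NT, 149, 165 and 148 in KD, 299 and 289 in EV, and 380, 408 and 375 in OE. No 2 groups overlapped, in the order KD, NT, EV, OE. It was 1.51-fold lower in KD (-0.59, SE 0.054, adjusted p = 1.35e-09) and 1.32-fold higher in OE (0.40, SE 0.053, adjusted p = 1.1e-06, edgeR). The call in OE was lost without EV replicate 2 (adjusted p = 0.000236), and the interaction was 0.99 (adjusted p = 2.01e-10).

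SLC3A2 followed the exchangers in both arms. Of its light chains among the carriers described here, SLC7A5 did so only in OE and SLC7A11 only in KD. SLC3A2 (chr11:62856004-62888880, + strand, 9 exons) was at 279 and 259 CPM in NT, 139.4, 159.2 and 139.6 in KD, 274 and 265 in EV, and 378, 412 and 363 in OE. The control lines overlapped each other, while KD was below both and OE above both. It was 1.84-fold lower in KD (-0.88, SE 0.059, adjusted p = 5.52e-12) and 1.43-fold higher in OE (0.51, SE 0.059, adjusted p = 1.5e-07), with an interaction of 1.40 (SE 0.084, adjusted p = 3.14e-12, edgeR).

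SLC7A5, the leucine carrier that SLC3A2 chaperones, rose in OE and was not called in KD. SLC7A5 (chr16:87830023-87869507, - strand, 10 exons) was at 274 and 264 CPM in NT, 282, 308 and 272 in KD, 460 and 471 in EV, and 660, 739 and 657 in OE. NT and KD overlapped, and EV and OE each lay above both. It was 1.47-fold higher in OE than in EV (0.56, SE 0.056, adjusted p = 1.86e-08, edgeR). The KD change was 0.09 with a 95% interval of -0.02 to 0.21 (adjusted p = 0.164). The interaction was 0.47 (SE 0.079, adjusted p = 3.89e-05), and that call was lost when NT replicate 1, NT replicate 2, KD replicate 1, EV replicate 1 or EV replicate 2 was left out (adjusted p up to 0.000803) and with scaling to library size only (0.33, adjusted p = 0.000627). EV was 1.73-fold above NT (0.79, adjusted p = 5.99e-10). The pseudogene SLC7A5P1 held 21 to 44 counts per sample and SLC7A5P2 none.

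SLC7A11, the cystine carrier that supplies cysteine for glutathione, had the steepest fall of the 10 in KD and fell in OE as well. SLC7A11 (chr4:138164097-138242349, - strand, 12 exons) was at 346 and 332 CPM in NT, 86.2, 79.1 and 99.97 in KD, 215 and 231 in EV, and 151, 163 and 165 in OE. The groups did not overlap and ran KD, OE, EV, NT. It was 3.83-fold lower in KD (log2 fold change -1.94, SE 0.065, adjusted p = 2.76e-17) and 1.40-fold lower in OE (-0.48, SE 0.065, adjusted p = 1.3e-06, edgeR). The OE call was lost without EV replicate 2 (-0.43, adjusted p = 0.000272). The interaction of 1.45 (adjusted p = 9.79e-12) was positive because the fall in KD was the larger of the 2 falls. EV was 1.52-fold below NT (adjusted p = 4.75e-07). The antisense gene SLC7A11-AS1 held 2 to 15 counts per sample.

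SLC7A1, the carrier of cationic amino acids, had the most counts of the 10 and the smallest called change in each arm. SLC7A1 (chr13:29509414-29595688, - strand, 13 exons) was at 857 and 798 CPM in NT, 642, 697 and 632 in KD, 922.8 and 919.8 in EV, and 1099, 1170 and 1094 in OE. The order KD, NT, EV, OE held with no overlap. It was 1.26-fold lower in KD (-0.33, SE 0.051, adjusted p = 4.73e-06) and 1.22-fold higher in OE (0.28, SE 0.051, adjusted p = 5.71e-05, edgeR). The OE call was lost when any 1 of the 5 EV and OE samples was left out (adjusted p up to 0.00263), with at least 10 counts required in every sample (0.27, adjusted p = 0.000136) and with scaling to library size only (0.19, adjusted p = 0.00101), and the KD call without NT replicate 1 (adjusted p = 0.00115). The interaction was 0.62 (SE 0.072, adjusted p = 2e-07).

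The sodium-coupled carriers SLC38A1 and SLC38A2, neighbours on chromosome 12, fell together in KD and parted in OE. SLC38A1 (chr12:46183063-46270017, - strand, 17 exons) was at 407 and 393 CPM in NT, 231, 215 and 235 in KD, 339.8 and 351.3 in EV, and 258, 244 and 255 in OE. OE and KD were each below both controls, and no groups overlapped. It was 1.76-fold lower in KD (-0.82, SE 0.047, adjusted p = 3.74e-13) and 1.37-fold lower in OE (-0.45, SE 0.048, adjusted p = 3.48e-08, edgeR). SLC38A2 (chr12:46358188-46372773, - strand, 16 exons), the member of the pair known for its induction on amino acid withdrawal, was at 343 and 335 CPM in NT, 198, 187 and 201 in KD, 270.0 and 266 in EV, and 297, 293 and 295 in OE. All OE samples were above both EV samples and below both NT samples. It was 1.73-fold lower in KD (-0.79, SE 0.044, adjusted p = 2.07e-13), and in OE the change of 0.14 (95% interval 0.05 to 0.23) was not called (adjusted p = 0.0122, edgeR). Its interaction was 0.93 (SE 0.064, adjusted p = 2.62e-11).

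SLC6A9, the glycine transporter GlyT1, changed most between the arms. SLC6A9 (chr1:43991500-44031467, - strand, 14 exons) was at 85.7 and 79.7 CPM in NT, 29, 33.3 and 31.5 in KD, 74.0 and 78.7 in EV, and 132.7, 134.8 and 120.3 in OE. The controls lay close to each other, KD far below and OE above. It was 2.65-fold lower in KD (-1.40, SE 0.064, adjusted p = 4.49e-15) and 1.69-fold higher in OE (0.76, SE 0.061, adjusted p = 5.45e-10, edgeR). The interaction of 2.16 (SE 0.089, adjusted p = 2.28e-15) was the largest of the 10 and amounts to 4.48-fold. CCDC24, which overlaps SLC6A9 on the opposite strand, held 270 to 352 counts per sample, and whether counting used strand is not given in the sources used here.

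SLC43A1, the leucine carrier LAT3, rose in KD, the only one of the 10 to do so. SLC43A1 (chr11:57484534-57515780, - strand, 15 exons) was at 118 and 122 CPM in NT, 177, 193 and 174 in KD, 297.1 and 270.4 in EV, and 291, 301 and 281 in OE. EV and OE overlapped, KD was above NT, and both lay below EV. It was 1.51-fold higher in KD (0.60, SE 0.055, adjusted p = 1.75e-09, edgeR). The OE change was 0.04 with a 95% interval of -0.07 to 0.15 (adjusted p = 0.583), and it was -0.06 with scaling to library size only. The interaction was -0.56 (SE 0.075, adjusted p = 1.7e-06), and that call was lost without EV replicate 1 (-0.47, adjusted p = 0.000136). The LNCaP markers that moved with the lines are given above.

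The controls differed from each other for 5 of the 10 carriers. In EV against NT, SLC1A5, SLC7A5 and SLC43A1 were called higher and SLC7A11 and SLC38A2 lower, where 5.25% of all genes were higher and 2.91% lower. SLC43A1 was 2.37-fold higher in EV (1.24, adjusted p = 6.42e-14, edgeR), the largest control difference of the 10. SLC3A2 differed by 0.00 (adjusted p = 0.989) and SLC1A4 by 0.08 (adjusted p = 0.499). CPT1A itself was called higher in EV, by 0.29 (adjusted p = 9.8e-05, edgeR). The calls for SLC1A5 (0.34, adjusted p = 6.91e-05) and SLC38A2 (-0.34, adjusted p = 9.17e-06) were lost when single samples were left out, for SLC1A5 in 7 of 10 cases (and under the filter of 10 counts per sample, adjusted p = 0.000136) and for SLC38A2 in 4 of 10, and that for SLC7A11 without EV replicate 1 (adjusted p = 0.000109). The vector, the selection drug and the line differ between the controls and cannot be told apart. When OE was compared with KD directly, without either control, 9 of the 10 were called higher in OE and all 10 log2 fold changes were above 0. Of all genes, 15.5% were higher and 16.4% lower. OE and KD also differ in vector, selection drug and line, so the direct comparison holds those differences beside that of CPT1A. SLC43A1 was higher in OE by 0.685 there, with a negative interaction of -0.56 and EV above NT by 1.24. SLC6A9 was 4.13-fold higher in OE than in KD (2.05, adjusted p = 6.03e-19), and SLC38A1, at 0.15 (95% interval 0.07 to 0.24, adjusted p = 0.00358), was the carrier not called (edgeR).

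Levels were compared between genes as CPM per kilobase of the canonical transcript. In NT, SLC3A2 had the highest level per kilobase (143), followed by SLC7A1 (113) and SLC1A5 (80.4), and SLC1A4 had the lowest (8.79). In KD, SLC7A1 (89.5) was above SLC3A2 (77.5), and the lowest were SLC6A9 (9.75), SLC7A11 (9.17) and SLC1A4 (4.56). In OE, SLC3A2 (204), SLC7A1 (153) and SLC7A5 (150.4) were highest. These places depend on the length used. The canonical transcript of SLC3A2 has 1885 bases and its merged exons 6392, and its mean over the lines fell from 142 to 41.8 CPM per kilobase with the merged length. With merged exons, SLC7A1 (145.8), SLC7A5 (143.8) and SLC1A5 (116.5) were highest in OE, where SLC3A2 was at 60.1. In KD, SLC6A9 (5.955) was then below SLC7A11 (9.17). The balance of SLC7A5 and SLC7A11 differed widely between lines. The ratio of SLC7A5 to SLC7A11 per kilobase was 1.68 in both NT samples, 6.91, 8.24 and 5.75 in KD, 4.52 and 4.32 in EV, and 9.28, 9.58 and 8.45 in OE. No groups overlapped, and the order was NT, EV, KD, OE. The ratio of SLC38A2 to SLC38A1 was 1.28 to 1.47 in the 7 NT, KD and EV samples and 1.94, 2.02 and 1.95 in OE. Another transcript length would multiply a ratio alike in every sample. The ratios are descriptions and were not tested.

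**Figure D3:**
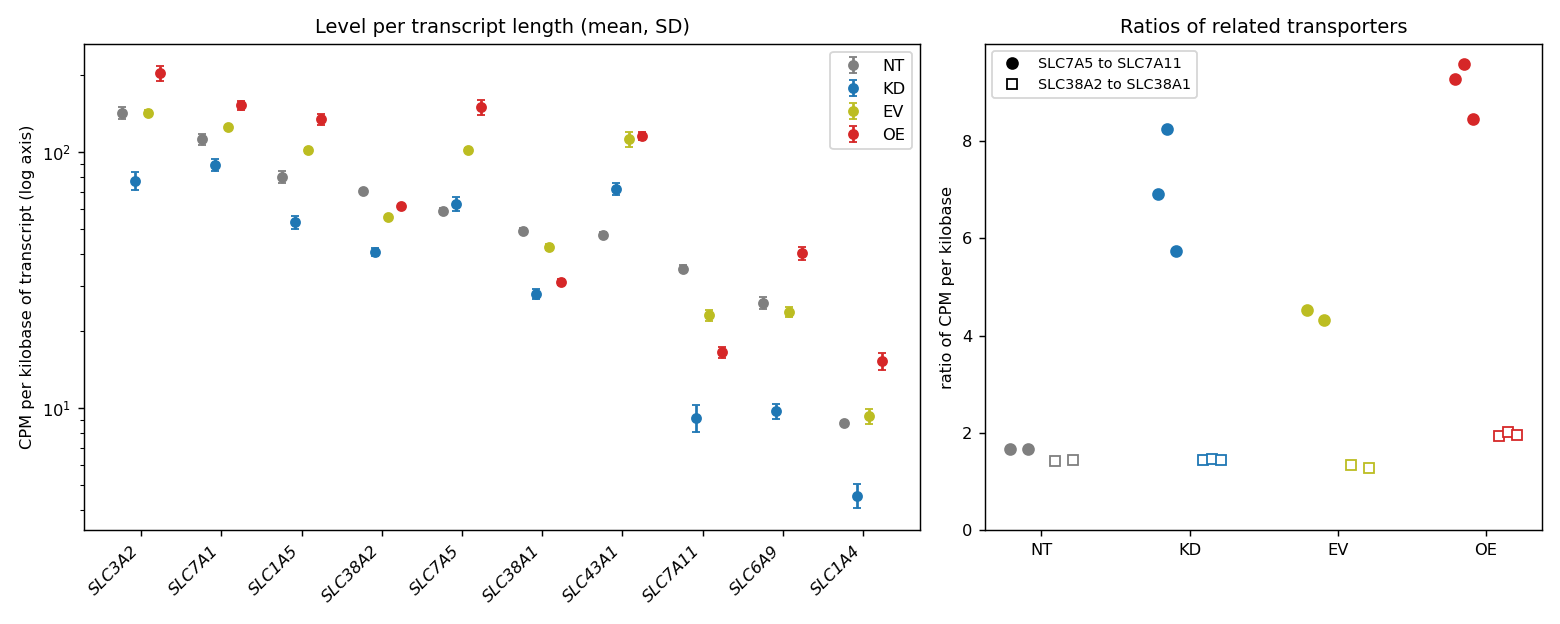
Left, CPM per kilobase of canonical transcript on a log axis, with the mean and SD of each line (n = 2 or 3) for each carrier. Right, the per-sample ratios of SLC7A5 to SLC7A11 (filled circles) and of SLC38A2 to SLC38A1 (open squares), where the first is 1.68 in NT and 8.45 to 9.58 in OE.

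Of 35 other amino acid carriers listed for the plasma membrane, 18 were tested, and in KD 7 of them were higher and 1 was lower, with a median log2 fold change of 0.15, where 16.4% of all genes were higher and 12.8% lower. In OE, 2 were higher and 2 lower, 22.2% of the list against 21.9% of all genes. The interaction was called positive for 1 and negative for 4, with a median of -0.30, where 6.94% of all genes were positive and 8.98% negative. SLC6A6, the taurine transporter, was at 10.6 and 12.4 CPM in NT, 32.5, 33.5 and 32.3 in KD, 11.7 and 11.97 in EV, and 15, 15.2 and 16.4 in OE, and rose in KD by 1.51 on the log2 scale (SE 0.083, adjusted p = 1.39e-13, edgeR). SLC16A10, a carrier of aromatic amino acids, rose in KD by 0.86 (adjusted p = 2.81e-07) and fell in OE by 0.93 (adjusted p = 1.5e-06). SLC36A4 and SLC7A6, the latter another light chain of SLC3A2, rose in KD by 1.43 (adjusted p = 2.8e-08) and 0.49 (adjusted p = 5.35e-08) and were not called in OE.

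Of 22 listed carriers of mitochondria and lysosomes, 21 were in the counts under the symbols used and 16 were tested. In KD 7 were higher and 1 lower (16.4% and 12.8% of all genes), while in OE 3 were higher and 2 lower (11.6% and 10.3% of all). Of the 7, 6 were mitochondrial, and the 1 lysosomal carrier was SLC36A1. It rose in KD by 0.71 (adjusted p = 3.69e-10) and in OE by 0.78 (adjusted p = 3.22e-11), with an uncalled interaction of 0.075. In EV it was 2.32-fold above NT (adjusted p = 3.13e-13, edgeR). The lysosomal carriers SLC38A7, SLC38A9, CTNS, SLC15A4 and MFSD12 were not called in KD. SLC36A1 and these 5 were named after their values were seen. Among the 16 tested, the interaction was called for 5, each negative, and its median was -0.175. Over all genes, 6.94% were positive and 8.98% negative in the interaction. SFXN1, which brings serine into mitochondria for one-carbon metabolism, rose in KD by 0.75 (SE 0.050, adjusted p = 5.4e-12) and was at -0.03 in OE (adjusted p = 0.666, edgeR). SFXN2 rose in KD by 0.62 (adjusted p = 4.81e-09) and fell in OE by 0.405 (adjusted p = 4.25e-06). The aspartate-glutamate carrier SLC25A13 rose in KD by 0.59 (adjusted p = 1.54e-08) and the ornithine carrier SLC25A15 by 0.785 (adjusted p = 8.47e-10), with OE values of -0.30 and 0.14 that were not called (edgeR).

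**Figure D4:**
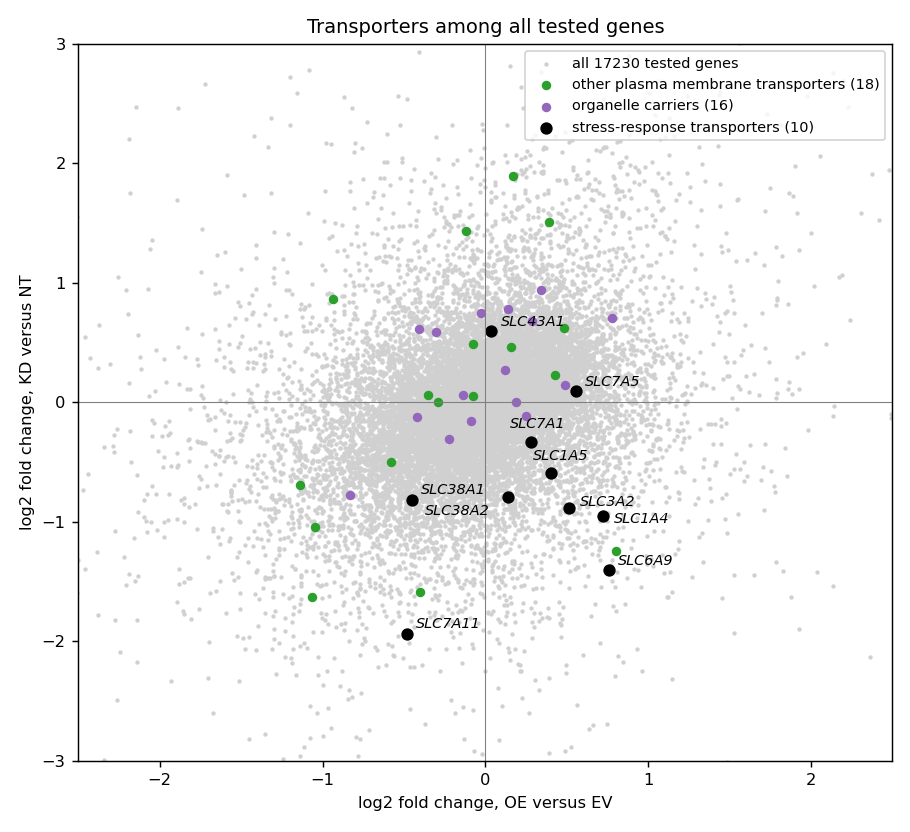
Log2 fold change in OE versus EV (horizontal) against KD versus NT (vertical) for all 17230 tested genes, with the 10 carriers in black, 18 other plasma membrane carriers in green and 16 organelle carriers in purple (224 genes lie outside the axes). SLC6A9, SLC1A4, SLC3A2, SLC1A5 and SLC7A1 lie in the lower right, and SLC7A11 and SLC38A1 in the lower left.

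Many listed genes downstream of eIF2 alpha in the stress response were called lower in KD and higher in OE. None of the kinases upstream was called in either of those directions. Of 22 listed genes, all tested, 15 were lower and 2 higher in KD (median -0.82), and 11 were higher and 1 lower in OE (median 0.31), beside 12.8% lower and 16.4% higher in KD and 11.6% higher and 10.3% lower in OE for all genes. Of the upstream genes, named after their values were seen, none of the kinases EIF2AK1, EIF2AK2, EIF2AK3 and EIF2AK4 nor EIF2S1, which encodes eIF2 alpha, was called lower in KD or higher in OE. EIF2AK4 (0.42, adjusted p = 3.26e-08) and EIF2S1 (0.24, adjusted p = 6.72e-05) were the 2 called higher in KD, and EIF2AK2 (-0.54, adjusted p = 1.2e-07, edgeR) the 1 called lower in OE. Short of a call in OE, EIF2AK3 (0.28, adjusted p = 0.00189) and EIF2AK1 (0.13, adjusted p = 0.0317) were above 0. EIF2AK4 (-0.17, adjusted p = 0.00308) and EIF2S1 (-0.12, adjusted p = 0.0305, edgeR) were below it. ATF4, the factor that reads the CARE letters, was at 1174 and 1160 CPM in NT, 464, 508 and 477 in KD, 904 and 891 in EV, and 1115, 1219 and 1101 in OE. Its KD samples were below all others and its EV samples below NT and OE. It fell in KD by 1.27 (SE 0.050, adjusted p = 3.12e-16) and rose in OE by 0.35 (SE 0.051, adjusted p = 3.47e-06, edgeR). ATF4 was called lower in EV than in NT (-0.38, adjusted p = 1.05e-05, edgeR), and its OE samples overlapped those of NT. DDIT3, which encodes CHOP, was at 84.6 and 79.6 CPM in NT, 10.3, 12.03 and 12.3 in KD, 48.2 and 54.4 in EV, and 59.2, 53.9 and 50.2 in OE. It fell in KD by 2.83 (adjusted p = 1.94e-18), and the OE change of 0.09 was not called (adjusted p = 0.343, edgeR), where EV and OE overlapped. DDIT3 was also called lower in EV than in NT (-0.68, adjusted p = 3.4e-07, edgeR). In EV against NT, 3 of the 22 genes were lower and 1 higher, beside 2.91% and 5.25% of all genes. CHAC1, which degrades glutathione, fell in KD by 2.27 (adjusted p = 1.95e-15) and rose in OE by 0.49 (adjusted p = 4.11e-05). TRIB3 and ATF3 fell in KD by 1.79 and 1.77 and rose in OE by 0.65 and 0.45 (adjusted p 3.84e-17 and 1.52e-15 in KD, 5.59e-09 and 1.22e-05 in OE, edgeR).

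Genes of amino acid sensing by mTORC1 did not share one direction. Of 22 listed, 20 were in the counts under the symbols used, and all 20 were tested. In KD 4 were higher and 3 lower, and in OE 2 were higher and 4 lower. The called share was 35% in KD and 30% in OE, near the 29.1% and 21.9% of all genes. The interaction was called for 4, each negative, with a median of 0.03 over the 20. Of all genes, 6.94% were positive and 8.98% negative there. CASTOR2, an arginine sensor subunit, rose in KD by 1.125 (SE 0.17, adjusted p = 4.27e-06) at low levels of 2.105 to 5.997 CPM. MTOR rose in KD by 0.56 (adjusted p = 6.74e-10) and SAR1B by 0.43 (adjusted p = 1.73e-07). SESN1 fell in OE by 0.85 (adjusted p = 1.13e-09, edgeR) and was at -0.08 in KD.

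The carriers' profiles over the 10 samples resembled different genes. The measure was Pearson's r of log2 CPM, over samples that share library and line, and the genes with the highest r are named as a description. SLC6A9 was most like CTH, the enzyme of cysteine synthesis from cystathionine (r = 0.999), and DDIT4 (0.999), an inhibitor of mTORC1. SLC3A2 was most like PCK2 (0.997), mitochondrial phosphoenolpyruvate carboxykinase, and RBCK1 (0.997). SLC1A5 was most like ENTPD5 (0.997) and ASS1 (0.997), the argininosuccinate synthase. Among the most like SLC1A4 was ZFAND2B (0.996), and SLC7A1 was most like YARS (0.995), the tyrosyl-tRNA synthetase, and RETSAT (0.994). The others had other partners. SLC7A5 was most like PLPP2 (0.994) and B3GAT3 (0.993), SLC7A11 like NEBL (0.991), SLC38A1 like IFRD1 (0.992) and EFL1 (0.992), and SLC38A2 like ESRP1 (0.986) and FTH1 (0.985), the ferritin heavy chain. SLC43A1 was most like PMEPA1 (0.997) and UNC80 (0.989). Among the carriers themselves, SLC1A5 and SLC7A1 had the highest r (0.996), then SLC3A2 and SLC6A9 (0.995), and the lowest was that of SLC38A1 and SLC43A1 (-0.369).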

How the data were processed

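The counts per gene were made by the authors before deposit. Read pairs were trimmed with BBDuk and mapped with STAR 2.6.0a to an Ensembl human transcriptome on GRCh38 (hg38), and the deposited values are whole-number counts for 57353 symbols in 10 columns, with 0 columns left out. Strandedness and the handling of reads that map to several genes are not given in the sources used here.

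Groups came from the sample labels. Nothing states separate cultures, so p values measure the spread between these samples, which may be technical. Samples of a group all differed beyond counting noise. Counts were filtered with filterByExpr, scaled with TMM and tested in R 4.3.3 with edgeR 4.0.16 (quasi-likelihood F test, 1 mean per line, Benjamini-Hochberg over 17230 genes, calls at 0.0001). Intervals are 95%, and CPM are TMM-scaled. The steps were tested on simulated data.

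Positions and lengths came from GENCODE v44 on GRCh38, which may differ in gene models from the authors' annotation, and start-site windows from RefSeq. Genes named beside the 10 were, per list, up to 4 with the largest called interaction at an average log2 CPM of at least 1, ATF4, DDIT3 and, per carrier, the 2 most correlated genes, apart from some that are not reported here. The carriers and lists were chosen with earlier results of these data known. Alternatives were DESeq2 1.42.0 size factors and its Wald test, limma-voom (limma 3.58.1), scaling by library size, dropping the filter or requiring 10 counts per sample, a limit of 0.05, a replicate block, each arm alone, merged exon length and leaving out each sample.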

Additional observations from a re-analysis of the deposited data

How the results depend on the processing

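Of 850 recomputed values of the 10 carriers (50 values under 17 settings), 805 kept their direction and side of the limit, 30 lost the call, 8 gained it and 7 changed sign. The sign changes concern uncalled values near 0: SLC43A1 in OE versus EV was -0.061 with library size only and -0.028 to 0.121 with a sample left out, and SLC3A2 in EV versus NT was -0.011 with at least 10 counts and -0.051 to 0.058 with a sample left out. At a limit of 0.05, the called genes among all were 8956 (OE versus EV), 9905 (KD versus NT), 7631 (interaction), 5867 (EV versus NT) and 10301 (OE versus KD), and with no filter 2306 for EV versus NT. With single samples left out they were 1740 to 4969, 3110 to 5339, 1786 to 3696 and 509 to 2438 for OE versus EV, KD versus NT, the interaction and EV versus NT. The carriers called lower were then 1 to 2 in OE versus EV, 0 to 1 in the interaction (0 without EV replicate 1) and 0 to 2 in EV versus NT, and for these the cause was not tested beyond the smaller number of samples. With the replicate block, SLC38A1 gained its interaction call (0.365, adjusted p = 2.49e-05, edgeR), as it did with DESeq2 size factors, no filter, the DESeq2 Wald test and limma-voom, and no other carrier call changed. The deviations of same-numbered samples from their line means correlated by -0.003 on average over 13 pairs against 0.002 over 24 other pairs, so the numbers were not read as pairs. Depth was at least 23555205 counts, each control line had 2 samples, and the effect of depth was not tested.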
